A study of Homo sapiens with 9 samples.

Results

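The HSD17B hydroxysteroid dehydrogenases are a family of human enzymes named after an activity on steroid hormones, and 8 of their genes were followed here through ribosome profiling of Huh7 cells: HSD17B11, HSD17B13, HSD17B12, HSD17B10, HSD17B4, HSD17B8, HSD17B2 and HSD17B6. They were chosen by gene name, with HSD17B11 selected on its own ratios, because it was lower with the compound PF846 and not with the related compound PF8503. The other 7 genes serve as its family comparison. Of the 8 genes, 5 had values in both deposited tables, which list 8839 transcripts for PF846 and 9157 for PF8503, with 8775 in both. HSD17B13, HSD17B8 and HSD17B6 had no value to analyse here.

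Ribosome profiling sequences the short stretches of mRNA that ribosomes protect from nuclease, so the count over a coding sequence follows how many ribosomes were translating it. Huh7 is an established human hepatocellular carcinoma line. Cells received 1.5 µM PF846 (written PF-067446846 in the sample labels), 1.5 µM PF8503 (PF-06378503) or 0.5% DMSO as vehicle for 1 hr, with 3 biological replicates in each of the 3 groups and cycloheximide in the lysis buffer. The labels name no genetic change in any group. Of 8 hepatocyte lineage genes checked, all 8 had values, led by AFP with a vehicle mean of 194937 normalized counts in the PF846 table, and of 7 genes of other cell types only EPCAM and PECAM1 had any.

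The deposited values are the authors' means per condition of normalized footprint counts, and no single library's value was used, because the tables hold none. The depth of each library and the spread between replicates are therefore unknown here, and no ratio below has an error, a test or a p-value. Ratios were taken as log2 of the compound mean over the vehicle mean, and an absolute log2 ratio of at least 0.5 was counted as past the fold. Both comparisons share the same vehicle libraries. The study's question for these tables was which mRNAs each compound keeps ribosomes from translating to the end.

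Members of the family belong to the short-chain dehydrogenases, which move hydride between NAD(P) cofactors and alcohol or ketone groups. The family name describes oxidation or reduction of sex steroids, yet several members work mainly on fatty acids, bile acid precursors, retinoids or branched-chain amino acids, and they reside in different compartments of the hepatocyte. HSD17B11 and HSD17B13 are close relatives that sit in the endoplasmic reticulum membrane and on lipid droplets through a hydrophobic start. PF846 and PF8503 are small molecules that act on the translating ribosome while particular nascent chains pass through its exit tunnel, so the first codons of the members are shown before their values.

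The first 90 coding bases, which encode the first 30 residues, are given 5′ to 3′ for 4 of the measured members and for HSD17B13 as the closest relative of HSD17B11. They were read from the Ensembl canonical transcripts of GENCODE version 44 on GRCh38, and capitals mark the codons of hydrophobic residues, meaning those with a Kyte-Doolittle value of at least 1.8 (alanine, cysteine, phenylalanine, isoleucine, leucine, methionine and valine).
HSD17B11: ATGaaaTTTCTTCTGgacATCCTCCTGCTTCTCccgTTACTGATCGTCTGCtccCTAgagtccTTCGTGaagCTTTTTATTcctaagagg
HSD17B13: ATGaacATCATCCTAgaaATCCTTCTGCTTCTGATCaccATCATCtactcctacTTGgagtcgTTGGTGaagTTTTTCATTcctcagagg
HSD17B12: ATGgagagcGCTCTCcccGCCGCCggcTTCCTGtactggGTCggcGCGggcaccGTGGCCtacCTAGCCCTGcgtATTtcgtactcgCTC
HSD17B10: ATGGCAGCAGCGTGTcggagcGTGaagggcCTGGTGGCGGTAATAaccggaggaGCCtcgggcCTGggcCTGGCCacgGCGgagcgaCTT
HSD17B4: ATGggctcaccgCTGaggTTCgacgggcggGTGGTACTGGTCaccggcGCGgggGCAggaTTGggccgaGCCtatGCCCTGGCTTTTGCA

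HSD17B11 (ENSG00000198189) lies at chr4:87336515-87391188 on the minus strand, and its 300 codons are spread over 7 coding exons, with the bases shown in exon 1 at chr4:87390981-87391070. Of its first 30 codons, 20 encode hydrophobic residues and 10 encode leucine. HSD17B13 (ENSG00000170509, chr4:87303789-87322886, minus strand) lies 13.6 kb away on the same strand, also has 300 codons, and its bases shown are in exon 1 at chr4:87322752-87322841. The encoded proteins were identical at 191 of 300 aligned positions, and at 17 of the first 30, where HSD17B13 has 18 hydrophobic residues and 7 leucines. No stretch of 28 bases of the HSD17B11 coding sequence occurred in the canonical protein-coding transcript of another gene. Inexact matches, repeats within the gene and the authors' older transcript set were not checked.

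The other measured members differ more from HSD17B11. HSD17B12 (ENSG00000149084) lies at chr11:43680680-43856617 on the plus strand and its protein shared 24.3% of aligned positions with that of HSD17B11. HSD17B2 (ENSG00000086696, chr16:82035004-82098534, plus strand) shared 21.8%, HSD17B10 (ENSG00000072506, chrX:53431258-53434370, minus strand) 21.4%, and the much longer HSD17B4 (ENSG00000133835, chr5:119452465-119637199, plus strand, 736 codons) 11.5%. The bases shown fall in exon 1 for HSD17B12 (chr11:43680828-43680917). They cross from exon 1 into exon 2 for HSD17B10 (chrX:53434319-53434345 and chrX:53433824-53433886) and for HSD17B4 (chr5:119452576-119452633 and chr5:119456315-119456346). Hydrophobic codons numbered 16 of the first 30 in HSD17B12, 17 in HSD17B10 and 16 in HSD17B4, with leucine at 5, 4 and 4 of them. None of these 4 coding sequences held a 28-base stretch found in another gene either.

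In vehicle-treated cells the measured members covered a wide range of translation. Means were divided by the coding length less 10 codons at each end, the stretch the methods count where no break in the reads was placed, to give normalized counts per 100 codons, and the vehicle means of the PF8503 table were used. Where a break was placed, the counted stretch is shorter than this length and its true length is not in the tables. HSD17B10, a mitochondrial enzyme of isoleucine breakdown and a subunit of mitochondrial RNase P, had 1229 per 100 codons. HSD17B4, the peroxisomal bifunctional enzyme of beta-oxidation, had 1183. HSD17B11 followed with 504 and HSD17B12, the ketoacyl-CoA reductase of very long chain fatty acid elongation, with 366. HSD17B2, which inactivates estradiol and testosterone, had 131. HSD17B7, a sterol-synthesis enzyme of the family that is not among the 8 genes chosen, had 96.6. With no replicate values, it is unknown which neighbours in this order differ beyond their spread. The PF846 table gave the same order, with 445 for HSD17B11 between 1083 for HSD17B4 and 335 for HSD17B12.

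HSD17B11 was the member that stood apart with PF846. The authors' mean was 1246 normalized counts with vehicle and 404 with PF846, which is 32.4% of vehicle, 3.08-fold lower, and a log2 ratio of -1.62. These values chose the gene, so they are a description. With PF846, 0.396% of all transcripts had a log2 ratio of -0.5 or below and 0.475% were past the fold in either direction. HSD17B11 had the second lowest ratio of the 8839 transcripts. Of the 1779 transcripts whose mean level lay within 1.5-fold of its own, the central 95% had log2 ratios from -0.15 to 0.13 and the lowest was -1.41. Per 100 codons of the same full length, HSD17B11 stood at 144 with PF846, between HSD17B12 at 327 and HSD17B2 at 117. The HSD17B11 value is approximate, because its counted stretch in the PF846 table was shorter, going by the vehicle means given further on.

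With PF8503 the same gene was near its vehicle level. The authors' mean was 1412 normalized counts with vehicle and 1491 with PF8503, which is 106% of vehicle and a log2 ratio of 0.08. With PF8503, 1.08% of all transcripts had a log2 ratio of -0.5 or below and 1.32% were past the fold in either direction. The 1240 transcripts within 1.5-fold of HSD17B11 in level had a central 95% from -0.23 to 0.20, and 957 of them had a ratio at or below that of HSD17B11.

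**Figure D1:**
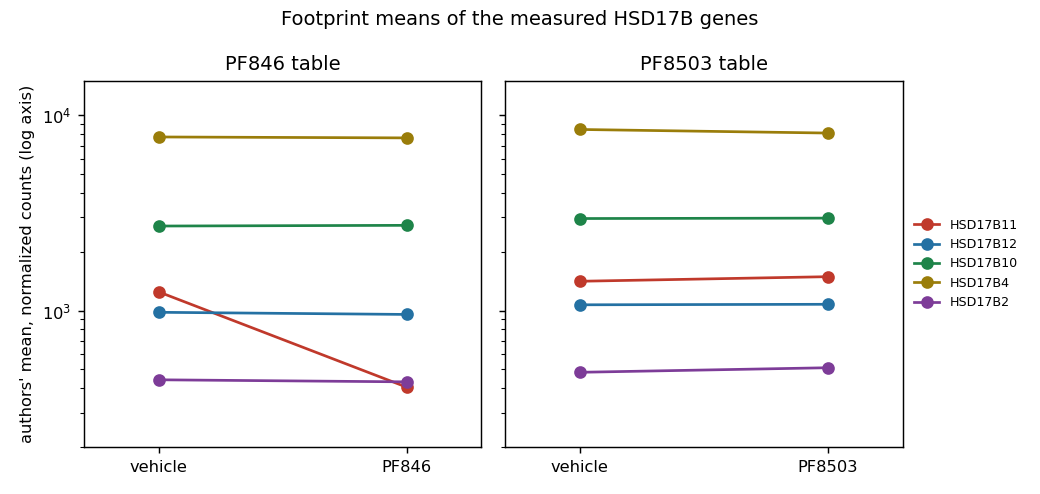
The authors' mean normalized count of each measured HSD17B gene (vertical log axis) with vehicle and with the compound, 1 line per gene, in the PF846 table (left) and the PF8503 table (right). Only the HSD17B11 line slopes steeply, from 1246 to 404 with PF846, whereas it runs from 1412 to 1491 with PF8503. The points are means of unseen replicates and carry no error bars.

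The 4 other measured members were near their vehicle level with both compounds. HSD17B12 had means of 979 with vehicle and 955 with PF846, a log2 ratio of -0.04, and of 1070 with vehicle and 1076 with PF8503, a log2 ratio of 0.01. HSD17B10 had 2710 and 2733 in the PF846 table (0.01) and 2961 and 2976 in the PF8503 table (0.01). HSD17B4 had 7753 and 7668 in the PF846 table (-0.02) and 8470 and 8119 in the PF8503 table (-0.06).

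HSD17B2 had 442 and 431 in the PF846 table (-0.04) and 482 and 509 in the PF8503 table (0.08). The log2 ratios of these 4 genes thus ran from -0.04 to 0.01 with PF846 and from -0.06 to 0.08 with PF8503, inside the central 95% of all transcripts in each table, which ran from -0.23 to 0.22 and from -0.32 to 0.28. None of the 4 was past the fold with either compound. With PF846, 1 of 5 measured members was past it, the gene chosen for its ratio, beside 0.475% of all transcripts. With PF8503 it was 0 of 5, beside 1.32% of all transcripts, a share at which 5 genes would hold none or nearly none. Of 4 further family genes listed, HSD17B7 was the one with values, and it had 284 and 285 in the PF846 table and 310 and 314 in the PF8503 table.

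**Figure D2:**
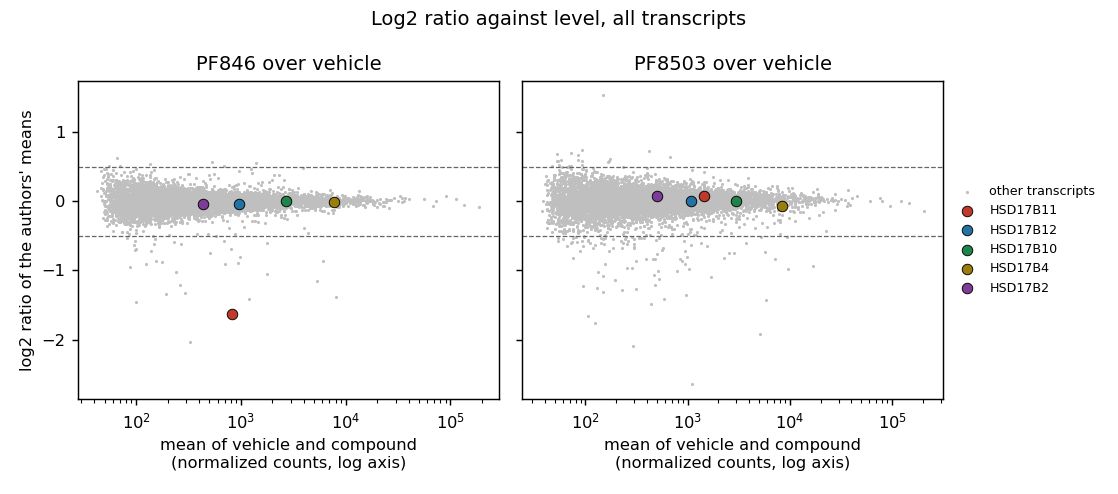
Log2 ratio of the authors' means over vehicle (vertical axis) against the mean of vehicle and compound (horizontal log axis, normalized counts) for every transcript of the PF846 table (left, 8839) and the PF8503 table (right, 9157), with the 5 measured HSD17B genes in colour and dashed lines at the fold of 0.5. HSD17B11 lies at -1.62 in the left panel and at 0.08 in the right one, and the other 4 genes lie within the grey cloud in both.

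Set side by side at the same dose and time, the compounds differed at HSD17B11 and little at the other members. The log2 ratio with PF846 less that with PF8503 was -1.70 for HSD17B11, the lowest of the 8775 shared transcripts, of which the central 95% ran from -0.27 to 0.30. This gene was chosen for that difference. The difference was -0.05 for HSD17B12, 0.0047 for HSD17B10, 0.05 for HSD17B4 and -0.11 for HSD17B2. With 1 pair of compounds and no replicate values, no interval of these differences could be given.

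The counted stretch of the HSD17B11 coding sequence was not quite the same in the tables. Where the authors' profile placed a break in the reads, they counted from that position on, and otherwise from 10 codons after the start. The vehicle means of the PF8503 table were 1.09 times those of the PF846 table for 98.5% of shared transcripts, to within a log2 tolerance of 0.002, as a change of scale alone would give. After that scale, the HSD17B11 vehicle mean of the PF846 table was 96.4% of the one in the PF8503 table, whereas the 4 other members kept the same value. Setting the 2 compound means against each other after the scale, without the gene's own vehicle means, gave a difference of -1.76. That is the difference of -1.70 with the gap between the gene's 2 vehicle means added, so it is not a separate estimate. Footprints alone do not separate a smaller amount of mRNA from fewer ribosomes on each mRNA.

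The 5 transcripts whose pair of ratios lay nearest to that of HSD17B11, by straight-line distance over the 2 log2 ratios, were TM2D3, MST1, BCAP31, LRP8 and EMC7. TM2D3, which encodes a membrane protein, was the nearest at a distance of 0.41, with a log2 ratio of -1.35 with PF846 and -0.22 with PF8503. MST1, the secreted macrophage-stimulating protein made by hepatocytes, had -1.32 and -0.39. BCAP31, an endoplasmic reticulum membrane protein, had -1.05 and -0.24. LRP8, a receptor of the LDL receptor family, had -0.95 and -0.02, and EMC7, a subunit of the endoplasmic reticulum membrane complex, had -0.90 and 0.01. In all 5, as in HSD17B11, the vehicle mean of the PF846 table was below that of the PF8503 table after the scale, at 83.6% for TM2D3, 95.04% for MST1, 90.4% for BCAP31, 85.4% for LRP8 and 91.3% for EMC7. Of the 8775 shared transcripts, 42 had a shorter counted stretch in the PF846 table by this comparison, and 92 in the PF8503 table. The 5 were picked for ratios like those of HSD17B11, low with PF846, and counting starts at a break where one is placed. Their lower vehicle means can therefore follow from that choice and are not a separate likeness to HSD17B11. Likeness here is over 2 ratios that share a vehicle, and none of the 5 was as low with PF846 as HSD17B11.

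**Figure D3:**
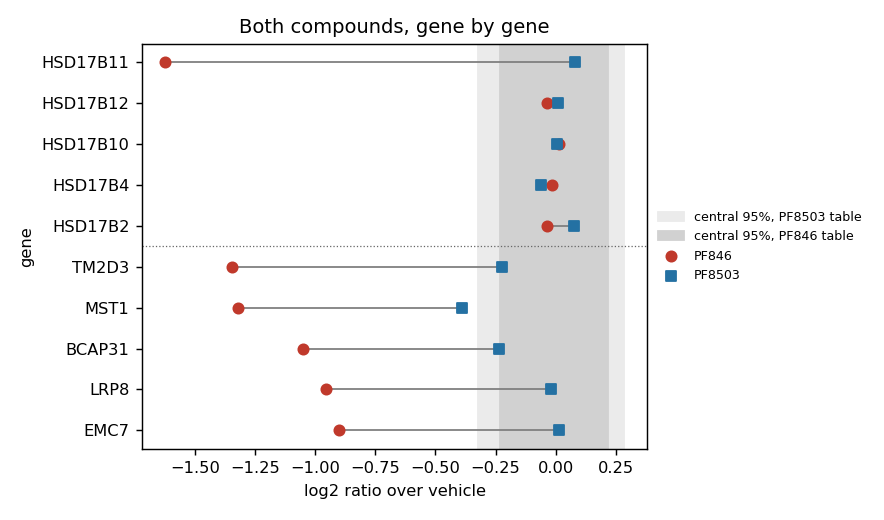
Log2 ratio over vehicle (horizontal axis) with PF846 (red circles) and PF8503 (blue squares) for the 5 measured HSD17B genes (top) and the 5 transcripts nearest to HSD17B11 (below the dotted line). Grey bands mark the central 95% of each table. The gap between the symbols is 1.70 for HSD17B11 and at most 0.11 for the other HSD17B genes, and both comparisons use the same vehicle libraries.

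The choice of genes did not use the hydrophobic start of HSD17B11. However, the cutoff below is HSD17B11's own value, and the comparison was not planned. Whether the start bears on the ratios was not tested. Averaged over residues 2 to 30, the Kyte-Doolittle hydropathy, in which higher is more hydrophobic, was 1.476 for HSD17B11, above 98.7% of the 8291 shared nuclear-encoded transcripts whose symbol matched a coding sequence. It was 1.34 for HSD17B13, 0.92 for HSD17B12, 0.90 for HSD17B10 and 0.70 for HSD17B4, so HSD17B11 had the highest mean of these genes. The peak over 9 codons was 3.36 at codon 11 in HSD17B11 and higher in HSD17B13, at 3.61 at the same codon. Most transcripts with such a start were not low. Of 103 other transcripts with a value at least as high as that of HSD17B11, 3 (2.91%) had a log2 ratio of -0.5 or below with PF846, against 31 of 8187 (0.379%) with a lower value. With PF8503 the counts were 3 of 103 (2.91%) and 86 of 8187 (1.05%). The 3 with PF846 were LRP8, SUMF1 and BRI3BP, and the 3 with PF8503 were TM4SF4, SLC13A5 and BRI3BP. All were named after their values were seen. Among the 5 transcripts nearest to HSD17B11 in their ratios, LRP8 (1.53) lay above the cutoff. BCAP31 (1.44), EMC7 (1.23), TM2D3 (1.22) and MST1 (0.80) lay below it, so these shares depend on where the line is drawn. BRI3BP was low with both compounds, at -1.02 with PF846 and -0.54 with PF8503. TM4SF4 had the opposite pattern to HSD17B11, at -0.13 with PF846 and -2.09 with PF8503. The median log2 ratio of the 103 was -0.02 with PF846 and 0.02 with PF8503, and no test was made of these shares.

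**Figure D4:**
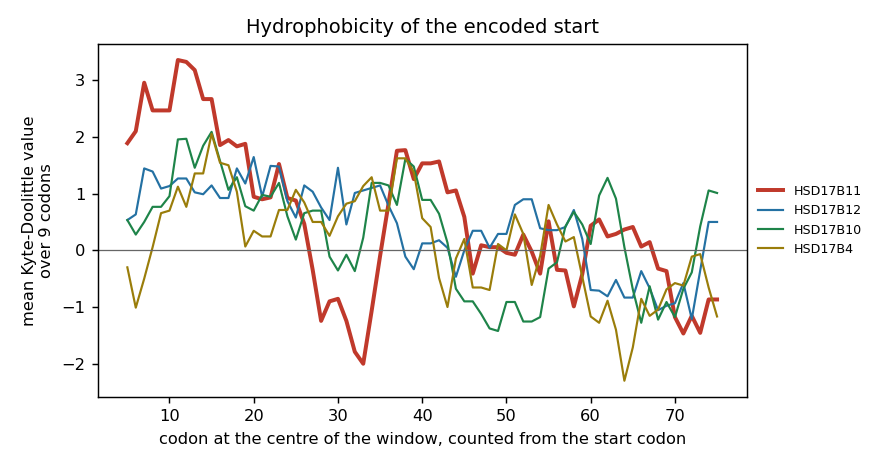
Mean Kyte-Doolittle value over 9 codons (vertical axis, above 0 is hydrophobic) along the first codons of HSD17B11, HSD17B12, HSD17B10 and HSD17B4 (horizontal axis, codon at the centre of the window). HSD17B11 peaks at 3.36 at codon 11, above the other lines there. HSD17B13, which has no footprint values here, is not drawn.

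The genes that work beside the family were counted against the share of all transcripts past the fold, 0.475% with PF846 and 1.32% with PF8503. At these shares a list of this length would hold none or nearly none, so a count of 0 says nothing particular about a list. Among other short-chain and retinol dehydrogenases, 25 of 45 listed genes had a value in the PF846 table and none was past the fold. Their median log2 ratio was -0.01, against 0.00086 for all transcripts. With PF8503, 26 had a value, none was past the fold, and the median was 0.07 against 0.01 for all transcripts. HSDL2, a peroxisomal dehydrogenase-like protein, had 0.02 with PF846 and 0.0076 with PF8503, and DHRS7, of the endoplasmic reticulum, had -0.06 and 0.06.

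Lipid droplet proteins share the location of HSD17B11. Of 35 listed, 25 had values in each table and none was past the fold, beside the shares of 0.475% and 1.32% over all transcripts. The log2 ratios of the 25 ran from -0.13 to 0.23 with PF846 (median -0.02) and from -0.14 to 0.31 with PF8503 (median 0.04). The highest vehicle means, not divided by length, were those of ACSL4 and ACSL3, which activate fatty acids. ACSL4 had log2 ratios of -0.08 with PF846 and -0.09 with PF8503, and ACSL3 had -0.03 and -0.14. Of 25 genes of sex steroid metabolism and its receptors, 7 had values with PF846 and 8 with PF8503, with medians of -0.01 and 0.02 and none past the fold. Their log2 ratios ran from -0.36 to 0.03 with PF846 and from -0.26 to 0.14 with PF8503. The lowest with PF846 was that of STARD3, a cholesterol transporter of late endosomes, named after its value was seen, and it lay below the central 95% of all transcripts. POR, the reductase that feeds electrons to microsomal cytochromes P450, had 0.02 and 0.01, and CYB5A, cytochrome b5, had -0.08 and 0.11.

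The partners of the other members gave 1 gene past the fold with PF846 and none with PF8503, beside the shares of 0.475% and 1.32% over all transcripts. In very long chain fatty acid elongation, where HSD17B12 acts, 9 of 14 genes had values with PF846 and 10 with PF8503. Medians were 0.03 and 0.06 with none past the fold, and HACD3 and TECR, which follow HSD17B12 in the cycle, had -0.05 and -0.0074 with PF846 and 0.0020 and 0.10 with PF8503. In peroxisomal beta-oxidation, where HSD17B4 acts, 14 of 15 genes had values in each table, with medians of 0.0073 and 0.01 and none past the fold. ABCD3, a peroxisomal fatty acid transporter, had -0.25 with PF846 and -0.24 with PF8503, and ECH1, a peroxisomal and mitochondrial isomerase, had 0.03 and 0.06. For HSD17B10, 13 of 15 genes of mitochondrial RNase P and isoleucine breakdown had values in each table, with medians of -0.04 and -0.06 and none past the fold. HADHA and HADHB, subunits of the trifunctional protein, had -0.01 and -0.04 with PF846 and 0.0025 and -0.10 with PF8503.

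Mitochondrial fatty acid synthesis, where HSD17B8 acts with CBR4, had values for 7 of 8 genes in each table, with medians of -0.03 and -0.05. NDUFAB1, its acyl carrier protein, was past the fold with PF846, with means of 827 with vehicle and 558 with PF846 and a log2 ratio of -0.57. With PF8503 its means were 1911 and 1603, a log2 ratio of -0.25. Its vehicle mean in the PF846 table was 47.3% of that in the PF8503 table after the scale, so its tables cover different stretches of the coding sequence. CBR4 had -0.01 and 0.07. OXSM, the condensing enzyme, had 0.06 with PF846 and -0.07 with PF8503.

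**Figure D5:**
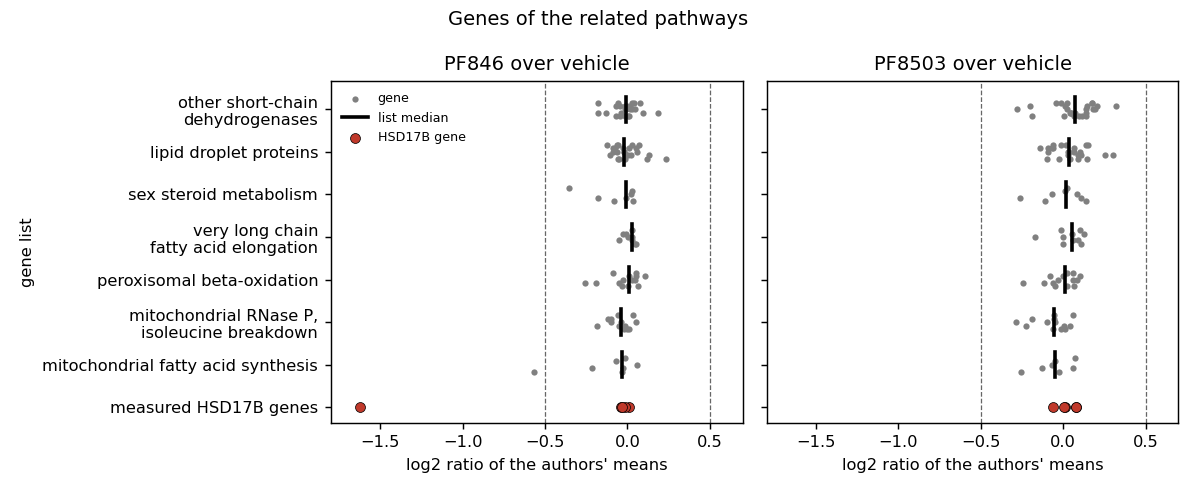
Log2 ratios over vehicle (horizontal axis) of the genes in 7 related lists (grey points, black bar at the list median) and of the 5 measured HSD17B genes (red), with PF846 (left) and PF8503 (right) and dashed lines at the fold of 0.5. In the left panel HSD17B11 at -1.62 and NDUFAB1 at -0.57 are the points left of the dashed line, and in the right panel no point is.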

How the data were processed

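Footprint libraries of Huh7 cells were made from 3 biological replicates each with vehicle, PF846 and PF8503 (9 libraries). Per the study's methods, adapters were removed with the FASTX toolkit, ribosomal RNA reads were removed and the rest aligned with Bowtie to canonical coding transcripts of GENCODE version 24 on GRCh38, and reads with a single place were kept. Versions of these tools are not given in the sources used here. Reads were counted past the point of largest difference between the cumulative profiles where its Z-score was at least 2, otherwise from 10 codons after the start, without the last 10 codons, for transcripts with more than 30 counts. What the authors deposited is a signal per transcript and condition, the DESeq mean of its counts after division by size factors. The columns do not say which libraries entered each mean, and a script supplied with the study numbers its replicates differently from the sample labels, so this is uncertain. The tables also hold the authors' fold changes, log2 fold changes, p-values and adjusted p-values, which were not used. Which of the 2 mean columns is vehicle was checked: 1 of them keeps a constant ratio between the tables.

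From these means, log2 ratios without a pseudocount were computed with Python 3.11.15, numpy 2.4.6 and pandas 2.3.3. Coding sequences came from GENCODE version 44 on GRCh38, translated and aligned with biopython 1.88. The start of the HSD17B2 coding sequence is not reported here. Counting and region steps were tested on simulated data. All 8 genes were named, with their list partners past the fold and the 2 genes of each list with the highest vehicle mean, not divided by length, and the 5 transcripts nearest to HSD17B11. The members and lists were chosen with earlier results of these data known. Alternatives were another centring or scaling, 10 added counts, other folds (0.25 and 1), means of at least 30 or 100, and leaving out the gene's own vehicle means.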

Additional observations from a re-analysis of the deposited data

How the results depend on the processing

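The log2 ratio of HSD17B11 moved by at most 0.02 with PF846 and 0.01 with PF8503 over centring on the table median, scaling to the table sum and adding 10 normalized counts. The difference between the compounds ran from -1.76 to -1.69, the first without the gene's own vehicle means. Of 61 results under alternatives, 57 stayed within the robust SD of all log2 ratios (0.08 with PF846, 0.11 with PF8503) or within 1.5 times a count, and 4 moved. For a difference between compounds the limit was the 2 SDs combined. Centring and scaling shift every transcript by the same small amount, and no transcript had a mean below 30, so most results could move little. With a fold of 0.25, 335 transcripts were past it with PF846 and 734 with PF8503, against 42 and 121 at 0.5, and with a fold of 1 there were 11 and 24. The wider or narrower fold sets these counts by construction. The measured members past the fold stayed at 1 with PF846 and 0 with PF8503 under each of these folds and with means of at least 30 or 100. Neither count could have changed under these settings. HSD17B11 was chosen for this pattern, with log2 ratios of -1.62 with PF846 and 0.08 with PF8503. The other members had log2 ratios from -0.06 to 0.08 over both compounds, and no measured member had a mean below 404. Centring on the median turned the ratios of HSD17B10 (-0.0055) and HSD17B12 (-0.0040) with PF8503 below 0, both within that SD of 0. Leaving out each replicate in turn was not run, because the tables hold condition means and no library values. No paired analysis was possible because the columns carry no replicate numbers. Library depth is unknown, so counting error cannot be stated for any mean.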

Other observations

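In both tables, 11 transcripts had a log2 ratio of -1 or below with PF846, and 3 of them lay within 0.25 of vehicle with PF8503: HSD17B11, TM2D3 and BCAP31. This limit was set after the values were seen, and the count has no test.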
